A study of Mus musculus with 24 samples.

Results

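The transcript levels described here are those of splenic B cells, isolated as resting cells and exposed for 1 h to KLA, set against those of B cells that received nothing. They were taken by the scanner labels, as the 2 channels labelled B cell with Kdo2 for 1 hour and the 2 labelled B cell with no treatment, so that 4 of the 24 channels of the series enter the comparison. KLA is Kdo2-lipid A, the defined core of bacterial lipopolysaccharide (LPS), and the parent study used it to activate the receptor TLR4 in macrophages.

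The B cells came from spleens of C57BL/6 mice and were isolated by magnetic depletion of cells carrying CD43 or CD11b, which is used to obtain resting B cells. Their state of activation at the start was not tested. The dose of KLA, the age of the mice and how the untreated cells were held during the hour are not given in the labels. No B cell sample received DMSO alone for 1 h, so that the effects of KLA, its solvent and 1 h of handling cannot be told apart. The other arrays used for reference held B cells after 12 h with DMSO or KLA, thioglycollate-elicited peritoneal macrophages (EPM), untreated or after 1 h of KLA, and bone marrow-derived macrophages (BMDM) after 1 h of DMSO or KLA. RNA was amplified and hybridised to 12 Agilent 2-colour arrays on 3 slides, 1 slide per cell type. Each array carried a single condition, with biological replicate 1 in Cy5 and replicate 2 in Cy3 (n = 2 per group), and was read as 2 channels. Both replicates of a condition therefore bound to the same printed spots, and a difference between 2 spots or 2 arrays is not part of the spread between replicates.

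Resting B cells carry TLR4 with its partner MD-2 (Ly96) but little of the co-receptor CD14, and they also carry the TLR4-like pair RP105 (Cd180) and MD-1 (Ly86). LPS is a classical mitogen for mouse B cells, in which it drives activation, division and antibody secretion over days. In macrophages the same receptor acts through MyD88 and TRIF to switch on NF-kappaB, AP-1 and interferon response factors, and transcripts of early response genes, inhibitors of NF-kappaB, cytokines and chemokines accumulate within the hour.

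The labels themselves are in conflict, and every value below holds under the scanner labels. In the authors' table of normalized values, the columns of B cell KLA 1 h followed the scanner channels of B cell DMSO 12 h (r = 0.97 in both dyes across 38516 probes, centred on the B cell channels) and ran against their own (r = -0.74 and -0.68). The columns of DMSO 12 h followed the scanner channels of KLA 1 h (r = 0.96 and 0.97). The other 4 B cell columns followed their own channels (r = 0.95 to 0.97). In the scanner values, the mean levels of the untreated and the KLA 1 h array correlated at 0.998 and those of the pair of 12 h arrays at 0.997, whereas an early and a late array correlated at 0.982 to 0.985. With the labels exchanged, the comparison becomes that of the DMSO 12 h scanner array with the untreated array, in which 8218 of 17344 genes were called (47.4%).

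The labelled cell type was checked against its markers. All 16 B cell markers were well above background in all 4 channels, and 0 were called between the groups by limma, with 1 higher and 0 lower at an unadjusted p under 0.05. Over all genes 3323 of 17345 were past that unadjusted p in either direction. Ms4a1, which encodes CD20, was at a log2 intensity of 15.08 and 15.18 in untreated cells and 15.00 and 15.02 after KLA. Among markers of other cells, 8 of 13 T cell genes, 9 of 15 macrophage genes, 5 of 5 dendritic cell genes, 8 of 8 erythroid genes, 6 of 6 plasma cell genes, 6 of 7 platelet genes, 2 of 8 NK cell genes and 2 of 12 neutrophil genes were well above background in all 4 channels. Itgam, Fcgr1 and Mrc1 of the macrophages and Cd3g, Thy1 and Cd28 of the T cells were so in none. The log2 of the summed macrophage marker intensities was 11.64 and 11.84 in untreated cells and 11.86 and 11.93 after KLA, and that of the T cell markers ran from 12.42 to 12.52 over the 4 channels. The erythroid sum was 13.53 and 13.70 in untreated cells and 13.51 and 13.89 after KLA. In bulk samples of this kind, fewer cells of a type and less RNA per cell cannot be told apart.

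The response of B cells at 1 h was small in size. Of 17345 genes tested, 897 were called by limma at an adjusted p under 0.05 (5.17%), 472 of them higher after KLA (2.72%) and 425 lower (2.45%). Over 2-fold, 32 genes were higher and 11 lower, and over 3-fold 15 were higher and 0 lower. The median size of a change over all genes was 0.08 on the log2 scale, and that of the called genes was 0.32. In EPM, 5049 genes were called at 1 h (29.1%), of which 290 were over 2-fold higher, and in BMDM 4956 (28.6%), of which 277 were over 2-fold higher. The change at 1 h itself differed between B cells and EPM for 3568 genes (20.6%) and between B cells and BMDM for 3011 (17.4%). With the dye, which replicates share across arrays, as a replicate block, 1247 genes were higher and 1159 lower in B cells, and the changes differed from those of EPM for 5601 genes and from those of BMDM for 4804.

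How the counts move with the arrays bears on every call. When array means were taken as samples, the spread between arrays came from the macrophage controls (2 residual degrees of freedom). It set untreated EPM against EPM after 12 h of DMSO, and BMDM after 1 h of DMSO against BMDM after 12 h. This spread therefore also holds differences of time in culture and, in EPM, of DMSO. In this fit limma called 8 genes higher and 0 lower, against 375 genes at an unadjusted p under 0.05. The 8 were Bcmo1, Ccdc7, Asb10, 9430028N04Rik, Ncr1, 7630403G23Rik, Slc38a3 and Hyal4, and their values follow. Without untreated replicate 1 the fit called 188 genes higher and 166 lower, without untreated replicate 2 401 and 256, without KLA replicate 1 169 and 164, and without KLA replicate 2 250 and 237. With arrays centred on their medians in place of quantile normalization, 289 genes were higher and 693 lower. RNA spike-in probes, which measure RNA added in fixed amount, differed between the 2 arrays by -0.18 to 0.02 on the log2 scale in Cy5 and -0.18 to -0.04 in Cy3 (10 probes).

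The largest increases were those of genes that were not well above background in untreated B cells. Bcmo1, which cleaves beta-carotene, was at a log2 intensity of 5.83 and 5.89 in the untreated channels and 8.91 and 9.0 after KLA. Ccdc7, a coiled-coil gene, was at 5.87 and 5.85 untreated and 8.77 and 8.87 after KLA. Both groups of both genes lay far apart and did not overlap. Bcmo1 (probe on mm8 chr8:120019073-120019132) was at least 7.28-fold higher (adjusted p = 2.31e-15) and Ccdc7 (chr8:131947949-131949012) at least 6.63-fold (adjusted p = 2.01e-15). These bounds set the mean of the bright group against a floor in each dim channel, the weakest signal that passed as well above background there, or the dim value itself where that was brighter. Asb10, an adaptor of ubiquitin ligases, was at 6.05 and 5.97 untreated and 8.68 and 8.69 after KLA, at least 6.02-fold higher. Ncr1, the activating receptor NKp46 of NK cells, was at 5.93 and 6.02 untreated and 8.21 and 8.40 after KLA, at least 4.64-fold higher. Slc38a3, a glutamine transporter, was well above background in all 4 channels and went from 6.34 and 6.35 to 8.52 and 8.53 (log2 change 2.18, standard error 0.06, adjusted p = 5.56e-15). In each of these 5 genes both KLA channels stood above both untreated channels. This separation was required when the largest increases were chosen, and 25.8% of all genes tested had it.

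The same genes were near their untreated level on the 12 h arrays of B cells. Bcmo1 was at 5.82 and 5.99 after 12 h of DMSO and its change at 12 h was 0.09 (adjusted p = 0.605), and that of Ccdc7 was -0.09 (adjusted p = 0.574). In EPM at 1 h Bcmo1 changed by -0.04 (adjusted p = 0.748) and Ccdc7 by -0.06 (adjusted p = 0.61), and the change of each differed between B cells and EPM, by 3.14 and 3.02 (limma adjusted p = 8.07e-14 and 5.56e-14). High levels of these genes thus stood on a single B cell array, that of KLA 1 h.

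**Figure D1:**
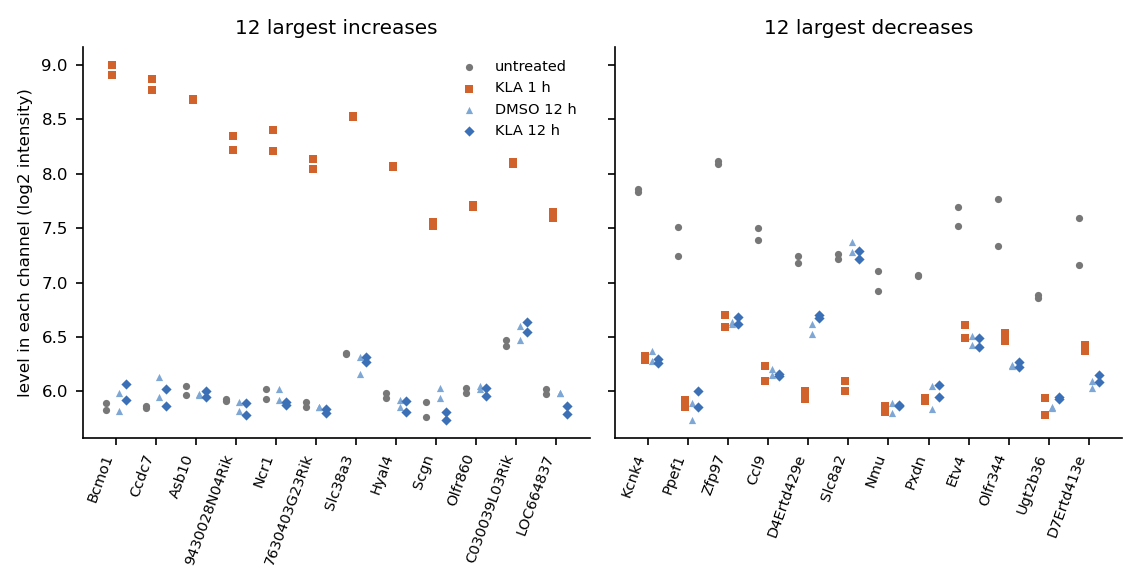
Level of the 12 largest increases (left) and the 12 largest decreases (right) in each channel of the 4 B cell arrays, in log2 intensity, with 2 points per condition, 1 per replicate. The increases stand up on the KLA 1 h array alone, at 7.52 to 9.0, and most of the decreases on the untreated array alone.

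Spots that touch on the slide moved together. Spots lie on a hexagonal grid, so that a spot has up to 6 touching spots, and 0 of the called genes had a touching probe of the same gene. The spots of Bcmo1 and Ccdc7 touch each other, and the spot of Ereg, which touches that of Ccdc7, changed by 3.00 on the log2 scale. The spot of Asb10 touches that of 7630403G23Rik, which changed by 2.21. The spot of 9430028N04Rik, which changed by 2.37, touches those of Slc38a3 (2.18), Olfr860 (1.69) and Itgav (2.62). Of the 32 genes over 2-fold higher, 29 had a touching spot that changed by more than 0.5 in the same direction (90.6%), against 2.24% of all genes tested. Of the 11 over 2-fold lower, 9 had one (81.8%), against 1.64% of all genes. In EPM at 1 h the share was 20.7% of 290 genes over 2-fold higher, against 17.5% of all genes, and in BMDM 25.3% of 277, against 16% of all. On the 12 h arrays of B cells it was 92.2% of 51 genes over 2-fold lower, against 3.14% of all, and 31.2% of 16 over 2-fold higher, against 3.52%. Over all called genes of B cells it was 101 of 472 higher (21.4%) and 82 of 425 lower (19.3%).

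The median change of the spots around the 32 increases fell from 1.51 at the spots themselves to 0.23 at touching spots, 0.07 at the next distance and 0.03 beyond that. The spots around the 290 increases of EPM had a median of -0.01 at touching spots, against 1.67 at the spots themselves. Both replicates were read from the same spots. With the median of a window of 10 rows and 4 columns to each side of a spot subtracted, 459 genes were higher and 411 lower over the whole array. This window is wider than the distance over which the changes around the increases faded. Its median therefore does not remove changes shared by a few touching spots, and these counts do not bear on them. With genes beside a spot that changed left out, 315 were higher and 289 lower.

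**Figure D2:**
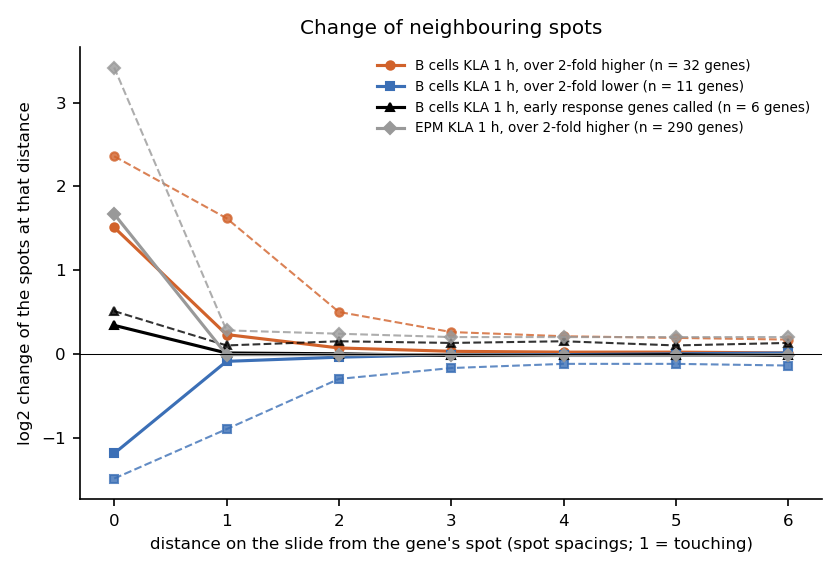
Log2 change of spots by their distance from the spot of a called gene, in spot spacings (0 is the spot itself, 1 a touching spot). Solid lines are medians and dashed lines the 90th percentile (the 10th for genes that were lower). Around the 32 increases of B cells over 2-fold the 90th percentile is 1.62 at touching spots, whereas around those of EPM it is 0.28.

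Decreases over 2-fold were fewer and smaller. Kcnk4, a potassium channel of neurons, was at 7.86 and 7.83 in untreated cells and 6.29 and 6.33 after KLA. Zfp97, a zinc finger gene, went from 8.12 and 8.09 to 6.70 and 6.59. Ccl9, a chemokine of myeloid cells, was at 7.39 and 7.50 untreated and was not well above background after KLA, at 6.10 and 6.23. The KLA channels lay below the untreated channels in all 3, which the choice of the largest decreases required, and 23.7% of all genes had this separation. Kcnk4 changed by -1.53 (adjusted p = 2.24e-12) and Zfp97 by -1.46 (adjusted p = 1.13e-12), while Ccl9 was at least 2.42-fold lower after KLA (adjusted p = 5.77e-07). Each had a touching spot that fell as well, by 1.38 beside Kcnk4, 1.82 beside Zfp97 and 1.05 beside Ccl9, where it was the spot of the transcription factor gene Etv4. The exceptions were Slc8a2, a sodium-calcium exchanger, and D4Ertd429e. D4Ertd429e changed by -1.24 at the probe used and by 0.03 at its other probe, which was well above background in all 4 channels. Slc8a2 went from 7.26 and 7.22 to 6.00 and 6.10 with touching spots between -0.14 and 0.05 (at least 2.19-fold lower, adjusted p = 1.61e-10), and was at 7.28 and 7.37 on the DMSO 12 h array.

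**Figure D3:**
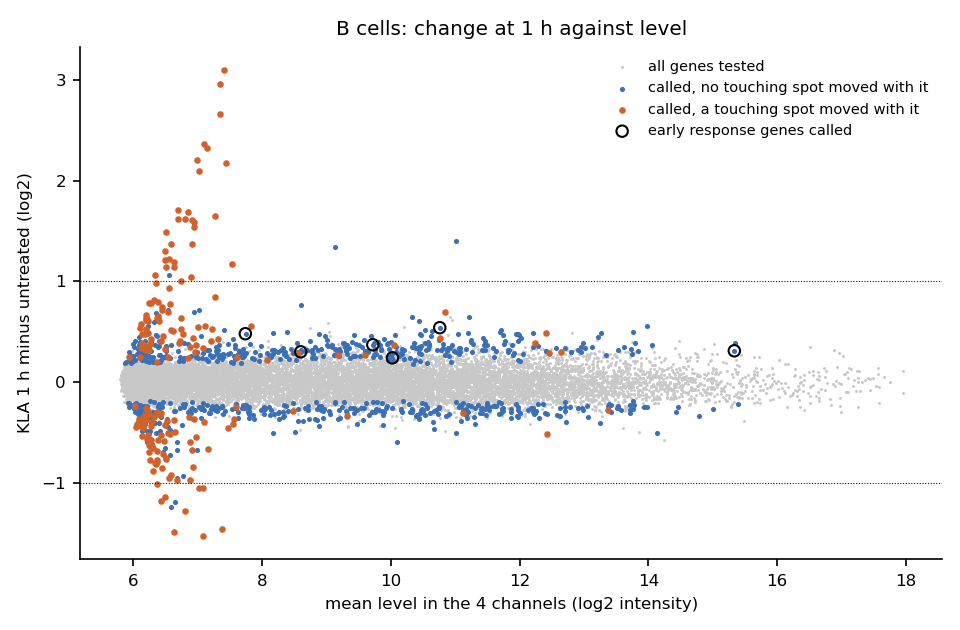
Log2 change at 1 h (KLA minus untreated) of all genes tested in B cells against their mean level in the 4 channels (log2 intensity), with called genes coloured by whether a touching spot changed by more than 0.5 in the same direction. Dotted lines mark 2-fold. Calls over 2-fold lie mostly below a level of 8 and have such a touching spot, and the early response genes that were called lie between 0.24 and 0.54.

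Among genes well above background in all 4 channels, changes were smaller. Of 13138 such genes, 340 were called higher and 291 lower, 5 and 4 of them over 2-fold. Iqcd, an IQ-domain gene, was the brightest of the 5, at 10.38 and 10.26 untreated and 11.77 and 11.65 after KLA. Lrdd, which encodes the death-domain protein PIDD of the p53 response, went from 8.49 and 8.44 to 9.83 and 9.77. Both were separated without overlap, and neither had a touching spot that changed by more than 0.5. The spot of Iqcd touches that of Ly96, which changed by 0.27. Iqcd changed by 1.40 (adjusted p = 1.58e-09) and Lrdd by 1.34 (adjusted p = 3.78e-10). Without KLA, on the DMSO 12 h array, Iqcd was at 11.3 and 11.23 and Lrdd at 9.41 and 9.38. These levels were above those of untreated cells by 0.95 and 0.93 (limma adjusted p = 2.2e-08 and 4.56e-09). At 1 h Iqcd changed by 0.57 in EPM and 0.82 in BMDM, and Lrdd by 0.12 and -0.02. The other probes of Lrdd, well above background in all 4 channels, gave -0.17 and -0.05. The other probe of Iqcd was well above background in none and bears on no change. Fgl2, a secreted prothrombinase, changed by 1.17 and had touching spots up to 1.62, and its other probe lay near the limit of detection, at 6.28 and 6.23 untreated and 6.30 and 6.32 after KLA.

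A second probe for the same gene gave a reading from another spot, but of the same RNA on the same array. Of 104 genes called higher that had another detected probe, 66 had a positive value there, and 23 had at least 50% of the change. The median was 0.32 at the probes used and 0.06 at the others. Of 158 genes called lower, 93 had a negative value at the other probe and 32 at least 50% of the change, with medians of -0.28 and -0.03. Adora2a, the adenosine A2a receptor that raises cAMP and dampens lymphocyte activation, was the largest increase among the 23. It was at 10.06 and 9.94 untreated and 10.73 and 10.57 after KLA, with no overlap. It changed by 0.65 (standard error 0.09, adjusted p = 0.000149), and by 0.44 at its other probe. Sesn2, a stress-induced inhibitor of mTORC1, changed by 0.33 and 0.31 at its 2 probes, and the adaptor gene Ticam1 by 0.27 at both.

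Early response genes, the transcription factors and feedback regulators that many signals switch on without new protein synthesis, were mostly detected and moved little. Of 48 tested, 46 were well above background in all 4 channels, 6 were called higher (12.5%) and 0 lower, and the median change was 0.11. Over all genes, 2.72% were called higher, and the median change was 0.01. At an unadjusted p under 0.05 limma gave 13 higher and 1 lower, where 3323 of 17345 genes passed in either direction. With the dye as a replicate block, 10 were higher and 2 lower, where 1247 and 1159 of 17345 genes were. With median centring 3 of the 48 (Fosb, Nr4a1 and Maff) were higher and 0 lower. No touching spot of the 6 moved with them. In EPM 31 of the 48 were higher with a median of 0.86, against 9.39% of all genes higher, and in BMDM 34 with a median of 0.87, against 11% of all genes. In 29 of the 48 the change was lower in B cells than in EPM by the test of the difference, as in 7.71% of all genes.

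Egr1, a zinc finger transcription factor induced through ERK, was at 10.64 and 10.34 in untreated cells and 11.19 and 10.87 after KLA. Fosb, an AP-1 subunit, was at 7.47 and 7.53 untreated and 7.96 and 8.01 after KLA. Nr4a1, the orphan nuclear receptor Nur77 that antigen receptors induce in lymphocytes, was among the brighter genes of the array, at 15.24 and 15.12 untreated and 15.51 and 15.46 after KLA. In all 3 the KLA channels were above the untreated channels. Egr1 changed by 0.54 (standard error 0.13, adjusted p = 0.0243), Fosb by 0.48 (standard error 0.06, adjusted p = 2.8e-05) and Nr4a1 by 0.31 (standard error 0.06, adjusted p = 0.00504). Maff, a small Maf protein without an activation domain, changed by 0.37 (adjusted p = 0.00294), Trib1, a pseudokinase that targets C/EBP factors for degradation, by 0.30 (adjusted p = 0.0443), and Atf3, a stress-induced repressor, by 0.24 (adjusted p = 0.0207). The call of Fosb held without each of the 4 channels in turn. Those of Egr1, Nr4a1 and Maff were lost without untreated replicate 2 (adjusted p = 0.213, 0.0727 and 0.0518) and without KLA replicate 1 (0.294, 0.0753 and 0.0743). Atf3 was lost in these 2 cases (0.203 and 0.134) and without KLA replicate 2 (0.0924), and Trib1 in all 4, with adjusted p between 0.0646 and 0.331.

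The other early response genes included bright members with small changes. Egr2 was at 11.29 and 11.33 untreated and 11.27 and 11.27 after KLA. Fos was near the lower end, at 7.05 and 7.01 untreated and 7.15 and 7.12 after KLA. Junb was at 14.77 and 14.88 untreated and 15.29 and 15.13 after KLA. Of these, Junb was separated and came closest to the threshold (0.38, adjusted p = 0.11, and 0.0131 with the replicate block). Myc changed by 0.16 (adjusted p = 0.278) and Jun by -0.02 (adjusted p = 0.918). Other probes, well above background in all 4 channels, gave 0.11 and 0.49 for Myc and 0.17 for Junb. In EPM the changes were 4.10 for Egr1, 3.49 for Maff, 3.38 for Nr4a1 and 2.15 for Trib1, and each was lower in B cells by the test of the difference. The change of Fosb was 0.61 in EPM and the difference was not past the threshold (-0.13, adjusted p = 0.317). Of the 48 genes, 28 were called higher in untreated B cells than in B cells after 12 h of DMSO, against 22.4% of all genes, and Nr4a1, at 13.37 and 13.34 there, and Maff, at 8.11 and 8.00, were among them.

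Promoters are printed for the early response genes of the 6 with a single promoter in the table used. That of Nfkb2, an NF-kappaB gene called higher, is printed as well, as the first of its 3. Maff, which also had 3, is left out. Icam1, another NF-kappaB gene called higher, had a single promoter, in which TATAAA was the only match to the motifs below, and is not printed. The sequences are from RefSeq on GRCm38.p6 and run 5′ to 3′ on the gene's strand, from 250 bases before the start of transcription to 50 bases after it. Capitals mark matches on either strand to TGACG (the core of a cAMP response element, CRE), TGACGTCA (the full CRE, which contains it), TGANTCA (AP-1), TATAAA, the NF-kappaB site or the SRF CArG box. Nr4a1 lies at chr15:101266596-101266895, plus strand, Fosb at chr7:19309996-19310295, minus strand, Atf3 at chr1:191183284-191183583, minus strand and Nfkb2 at chr19:46304487-46304786, plus strand.
Nr4a1: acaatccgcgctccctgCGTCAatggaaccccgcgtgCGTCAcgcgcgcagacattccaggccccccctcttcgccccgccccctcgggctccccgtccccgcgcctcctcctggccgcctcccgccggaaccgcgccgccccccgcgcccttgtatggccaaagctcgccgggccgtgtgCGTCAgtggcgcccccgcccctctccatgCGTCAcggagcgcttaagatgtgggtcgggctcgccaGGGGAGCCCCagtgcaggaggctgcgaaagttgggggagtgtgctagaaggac
Fosb: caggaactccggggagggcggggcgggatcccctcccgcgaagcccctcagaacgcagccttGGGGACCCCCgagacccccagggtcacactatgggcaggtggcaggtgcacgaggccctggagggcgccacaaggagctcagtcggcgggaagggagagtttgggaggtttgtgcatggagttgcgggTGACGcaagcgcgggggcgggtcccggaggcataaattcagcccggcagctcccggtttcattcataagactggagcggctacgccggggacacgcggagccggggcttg
Atf3: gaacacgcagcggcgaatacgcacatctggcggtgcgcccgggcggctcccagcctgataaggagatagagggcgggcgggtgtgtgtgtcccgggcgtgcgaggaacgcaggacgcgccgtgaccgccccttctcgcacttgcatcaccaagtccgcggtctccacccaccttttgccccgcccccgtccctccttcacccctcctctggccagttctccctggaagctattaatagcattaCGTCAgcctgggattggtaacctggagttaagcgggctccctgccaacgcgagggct
Nfkb2: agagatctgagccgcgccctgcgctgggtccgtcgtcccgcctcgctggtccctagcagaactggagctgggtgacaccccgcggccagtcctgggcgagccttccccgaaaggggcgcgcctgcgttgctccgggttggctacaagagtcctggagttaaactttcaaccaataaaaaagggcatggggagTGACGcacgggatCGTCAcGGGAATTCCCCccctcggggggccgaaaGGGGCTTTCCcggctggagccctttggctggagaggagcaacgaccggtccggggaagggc

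Of the 6 early response genes called, 4 were matched to the promoter table. All 4 held TGACG in a promoter, as 23% of 27025 genes did, 3 held an NF-kappaB site (5.14% of all), 1 held TGACGTCA (2.03%), and 0 held TGANTCA (8.97%), TATAAA (15.7%), a CArG box (1.81%), an interferon-stimulated response element (ISRE, 3.99%) or a heat shock element (0.662%). In Nr4a1 TGACG occurred 4 times, and in Nfkb2 2 times, where 1 lay next to an NF-kappaB site. Among the 12 largest increases 9 genes were matched, of which 1 held TGACG and 1 an NF-kappaB site. The core was added to the search after the changes were known, and a match describes the letters and not a bound site.

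Transcripts of the receptor complex for LPS were detected in the B cell samples, and their cell of origin was not tested. Markers of macrophages and dendritic cells were detected in these samples too. Tlr4 was at 7.16 and 7.21 untreated and 7.19 and 7.16 after KLA, against 9.87 and 9.82 in untreated EPM. Its other probe was not well above background in all 4 channels. Cd14 was near the limit of detection, at 6.66 and 6.66 untreated and 6.74 and 6.81 after KLA, against 12.82 and 12.83 in untreated EPM. Ly96, the MD-2 that binds lipid A, was at 9.46 and 9.39 untreated and 9.78 and 9.62 after KLA. Ly86, the MD-1 partner of RP105, was bright and level, between 13.63 and 13.68 in the 4 channels. None of these 4 was called, although Ly96, whose groups did not overlap, passed with the replicate block (0.27, adjusted p = 0.173, and 0.00647 with the block). Ly96 had a touching spot, that of Iqcd, which changed by 1.40. Cd180 changed by 0.01 (adjusted p = 0.989). Of 42 genes of the receptor and its signalling, 1 was higher (2.38%, against 2.72% of all genes) and 0 lower (median 0.00). The counts were 4 and 1 with the block, where 1247 and 1159 of 17345 genes were higher and lower, and 0 and 2 with median centring. The 1 was Ticam1, which encodes the adaptor TRIF, at 9.63 and 9.58 untreated and 9.89 and 9.85 after KLA (0.27, adjusted p = 0.0187). The KLA channels of Ticam1 lay above both untreated channels. Its call was lost without any 1 channel, with adjusted p from 0.068 to 0.155, and with each spot's local level subtracted (0.18, adjusted p = 0.116).

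The NF-kappaB group holds subunits, inhibitors and targets that feed back on the pathway. All 36 were well above background in all 4 channels, 2 were called higher (5.56%, against 2.72% of all genes) and 1 lower (2.78%, against 2.45%), and the median was 0.04. With the block the counts were 5 and 3, where 1247 and 1159 of 17345 genes were higher and lower. In EPM 28 of the 36 were higher, with a median of 1.22, where 9.39% of all genes were. Nfkb2, the p100 subunit, was at 12.39 and 12.60 untreated and 12.77 and 12.82 after KLA. Icam1, the adhesion molecule, was at 11.82 and 11.72 untreated and 12.07 and 12.00 after KLA. Birc3, the cIAP2 inhibitor of cell death, was at 13.87 and 13.88 untreated and 13.46 and 13.66 after KLA. Both groups of each of the 3 were separated, upwards in Nfkb2 and Icam1 and downwards in Birc3. Nfkb2 changed by 0.30 (adjusted p = 0.0481), Icam1 by 0.27 (adjusted p = 0.0178) and Birc3 by -0.31 (adjusted p = 0.0206). Nfkb2 had a touching spot that changed by 0.61, and its call was lost in each of 10 alternatives and without untreated replicate 1, KLA replicate 1 or KLA replicate 2 (adjusted p = 0.419, 0.165 and 0.207). The other probe of Birc3 gave -0.01 and that of Icam1 0.12. Icam1 was lost without untreated replicate 2, KLA replicate 1 or KLA replicate 2 (0.149, 0.173 and 0.0513), and Birc3 without untreated replicate 1, untreated replicate 2 or KLA replicate 1 (0.122, 0.0877 and 0.288).

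The inhibitors of NF-kappaB moved less in B cells than in EPM. Nfkbia, which encodes IkappaB-alpha and is one of the fastest targets of the pathway, was at 14.65 and 14.74 untreated and 15.08 and 14.96 after KLA. Tnfaip3, the ubiquitin-editing A20, was at 11.37 and 11.20 untreated and 11.44 and 11.36 after KLA. The groups of Nfkbia were separated and those of Tnfaip3 overlapped. Nfkbia changed by 0.33 with a 95% interval of 0.11 to 0.55 (adjusted p = 0.0758, and 0.018 with the block), and Tnfaip3 by 0.11 with an interval of -0.03 to 0.25 (adjusted p = 0.39). In EPM the changes were 4.62 and 4.28, and the differences of -4.29 and -4.16 were past the threshold (limma adjusted p = 1.2e-13 and 3.62e-16). The changes of Rel (0.15, adjusted p = 0.343), of Nfkbiz (0.06, adjusted p = 0.774) and of the RNase gene Zc3h12a (0.46, adjusted p = 0.0666, and 0.000129 with the block) were not past it.

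**Figure D4:**
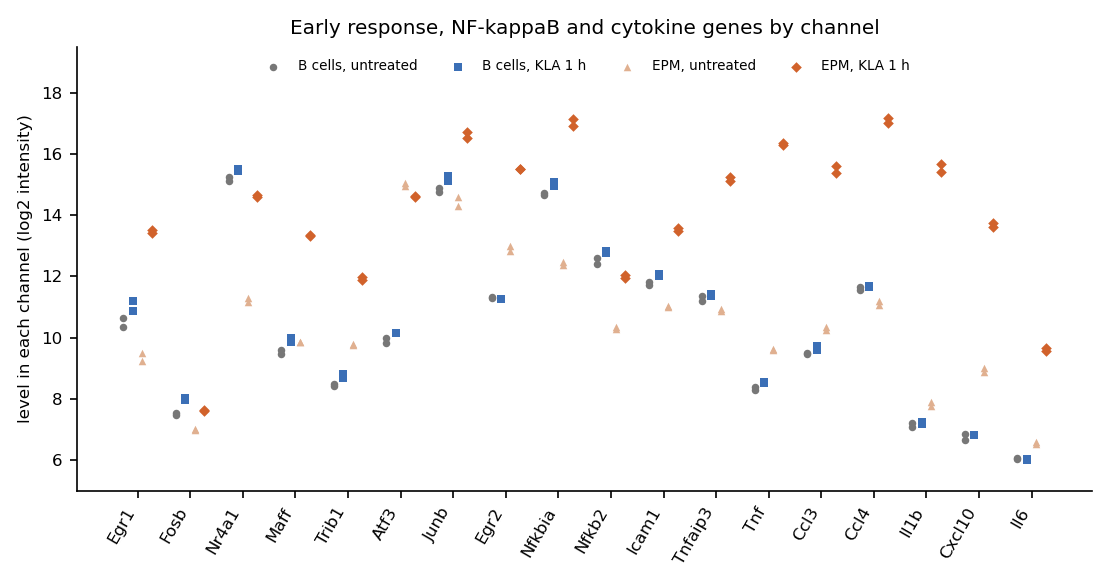
Level in each channel (log2 intensity) of early response, NF-kappaB and cytokine genes in B cells and EPM, untreated and after 1 h of KLA, with 2 points per group, 1 per replicate. In B cells the changes of these genes run from -0.04 to 0.54, whereas in EPM Tnf, Ccl4 and Il1b rise by 5.96 to 7.71.

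Cytokine and chemokine genes had the most members below detection among the gene groups. Of 41 tested, 18 were well above background in no B cell channel, 1 was called higher (2.44%, against 2.72% of all genes) and 0 lower, and the median was 0.01, while 29 of the 41 were higher in EPM with a median of 1.23. Tnf was at 8.40 and 8.29 untreated and 8.56 and 8.51 after KLA, a change of 0.19 with an interval of 0.03 to 0.35 (adjusted p = 0.163, and 0.0394 with the block). Ccl3 and Ccl4, chemokines that activated B cells secrete, changed by 0.18 (interval -0.09 to 0.45) and 0.07 (interval -0.15 to 0.30). Il10 changed by 0.04 and Il1b by 0.05, and Il6 was well above background in no channel of either group, at 6.00 to 6.05. The groups were separated for Tnf and overlapped for Ccl4 and Il1b. In EPM these genes changed by 6.73 (Tnf), 5.20 (Ccl3), 5.96 (Ccl4), 7.71 (Il1b), 3.32 (Il10) and 3.07 (Il6), and each change was lower in B cells by the test of the difference. The 1 cytokine called was Il15, a growth factor of NK and memory T cells, at 7.52 and 7.55 untreated and 7.92 and 7.80 after KLA (0.33, adjusted p = 0.0259). Its other probe was well above background in no channel. Its call was lost without any 1 channel, with adjusted p from 0.0514 to 0.247. At 12 h, where the control was DMSO, the changes in B cells were 1.57 for Il6, 1.52 for Cxcl10, 1.03 for Ccl3, 0.43 for Tnf and 0.40 for Il10, all past the threshold, and that of Ccl4 was 0.16 (adjusted p = 0.519).

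A list was also drawn from the macrophage channels alone. In both EPM and BMDM, 105 genes were over 3-fold higher at 1 h and past the threshold, and 78 of them were well above background in all 4 B cell channels and 20 in none. In B cells 6 of the 105 were called higher (5.71%, against 2.72% of all genes) and 1 lower, and the median change was 0.03, against 2.86 in EPM and 2.73 in BMDM. Changes ran from -0.29 to 0.54, and the highest upper limit of a 95% interval was 0.87. The change differed from that of EPM in 105 of the 105 and from that of BMDM in 105, where the macrophage changes had chosen the genes. The 6 that rose were Egr1, Maff, Icam1, Jmjd3, Itpkc and Trex1. Jmjd3, a histone H3K27 demethylase, was at 11.56 and 11.32 untreated and 12.06 and 11.82 after KLA (0.50, adjusted p = 0.0336). Itpkc, an inositol trisphosphate kinase that limits calcium signals, was at 9.09 and 9.31 untreated and 9.66 and 9.53 after KLA (0.40, adjusted p = 0.00393), and its other probe was well above background in 1 of the 4 channels. Trex1, a cytosolic DNA exonuclease, changed by 0.33 (adjusted p = 0.0163). The 1 that fell was Ccrn4l, the circadian deadenylase nocturnin, by 0.29 on the log2 scale (adjusted p = 0.0206), and a touching spot fell by 0.92. KLA and untreated channels were separated in all 7. Without single channels the calls of Jmjd3 (without untreated replicate 1, untreated replicate 2 or KLA replicate 1, adjusted p = 0.0549, 0.236 and 0.308), Itpkc (without untreated replicate 1 or KLA replicate 1, 0.109 and 0.0868), Ccrn4l (without untreated replicate 1 or KLA replicate 2, 0.23 and 0.182) and Trex1 (without any, 0.0591 to 0.131) were lost. At 12 h 21 of the 105 were higher and 0 lower in B cells, with a median of 0.05, where 2.81% of all genes were higher and 2.48% lower.

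**Figure D5:**
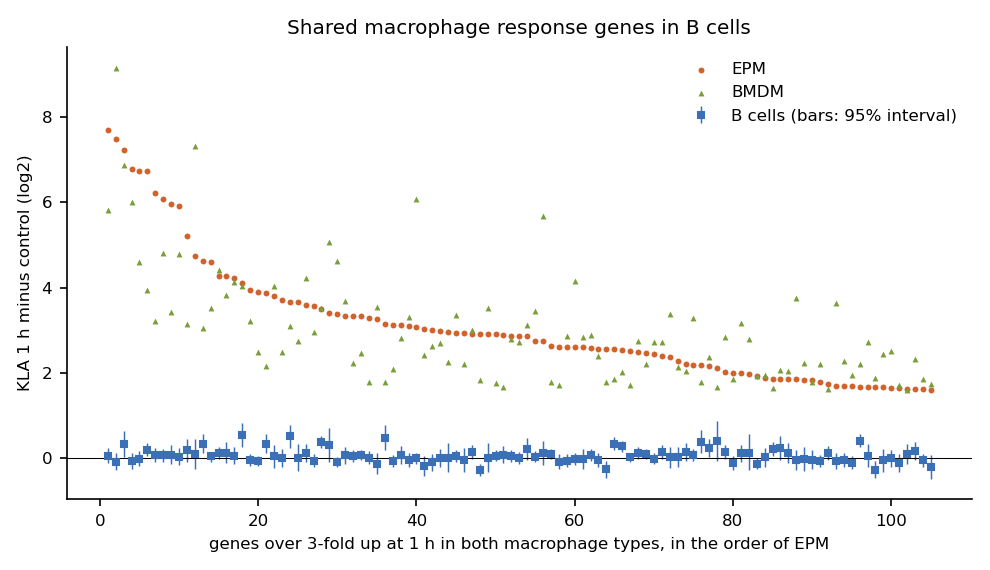
Log2 change at 1 h (KLA minus control) of the 105 genes over 3-fold higher in both EPM and BMDM, ordered by the change in EPM. Points of B cells with their 95% intervals lie along 0, between -0.29 and 0.54, below both macrophage types.

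The activation programme of B cells was not called at 1 h. Of 33 genes of B cell receptor signalling limma called 0, with 5 higher and 2 lower at an unadjusted p under 0.05 and a median of 0.01. Of 33 activation and costimulation genes it called 0, with 2 higher and 1 lower at an unadjusted p under 0.05 and a median of -0.02. Over all genes 3323 of 17345 were past that unadjusted p in either direction. With the replicate block 3 were higher and 1 lower of the receptor signalling genes and 2 and 1 of the activation genes. The block gave 1247 higher and 1159 lower of 17345 genes. Cd69, the early activation antigen, was already high, at 11.93 and 11.60 untreated and 11.78 and 11.72 after KLA. Cd86, the B7-2 ligand of CD28, was at 10.13 and 10.21 untreated and 10.21 and 10.20 after KLA, and Cd83 at 14.98 and 14.93 untreated and 15.01 and 14.99 after KLA. Groups overlapped for Cd69 and Cd86, and for Cd83 the KLA channels lay just above the untreated channels. After 12 h of DMSO the channels stood at 9.69 and 9.62 for Cd69, 8.06 and 8.14 for Cd86 and 13.51 and 13.54 for Cd83. Of the 33 activation genes, 16 were called higher in untreated cells than after 12 h of DMSO and 10 lower, against 3883 and 4335 of 17344 genes. The highest and lowest changes among activation genes were 0.27 for Tnfrsf4, the OX40 receptor (adjusted p = 0.0775), and -0.21 for Cd274, the ligand PD-L1 (adjusted p = 0.324). Among receptor signalling genes they were 0.34 for the adaptor gene Pik3ap1 (adjusted p = 0.17) and -0.20 for the kinase gene Lyn (adjusted p = 0.474). Other probes, well above background in all 4 channels, gave 0.04 and 0.42 for Pik3ap1 and 0.32 for Lyn.

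Homing and chemoattractant receptors were the group with most calls downwards, at 4 of 25 (16%, against 2.45% of all genes), with 0 higher and a median of -0.01. With an offset of 16, 2 of the 25 were lower, as many as of the apoptosis regulators. Edg1, the receptor S1P1 that guides egress, was at 11.60 and 11.60 untreated and 11.40 and 11.38 after KLA. Itgal, the integrin chain LFA-1 alpha, was at 11.71 and 11.58 untreated and 11.31 and 11.31 after KLA. Rgs18, a regulator of G protein signalling, was at 6.98 and 6.97 untreated and 6.54 and 6.54 after KLA. In these 3 genes the KLA channels lay below the untreated channels. The changes were -0.21 (Edg1, adjusted p = 0.0291), -0.33 (Itgal, adjusted p = 0.00126) and -0.43 (Rgs18, adjusted p = 0.00166). The other probe of Itgal gave 0.20 and that of Rgs18 0.00. The call of Edg1 was lost without any 1 channel, with adjusted p from 0.106 to 0.156, and those of Itgal and Rgs18 were kept without each.

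Stress and cell death genes gave scattered calls in both directions. Of 28 genes of the integrated stress and unfolded protein response, 2 were higher (7.14%, against 2.72% of all genes), 1 was lower (3.57%, against 2.45%) and the median was 0.09. At 12 h, against DMSO, 14 of them were higher with a median of 0.30, where 2.81% of all genes were higher. Sesn2 was at 13.59 and 13.55 untreated and 13.93 and 13.88 after KLA (0.33, adjusted p = 0.0126). Shmt2, the mitochondrial serine hydroxymethyltransferase, changed by 0.32 (adjusted p = 0.0297) and Psat1, of serine synthesis, by -0.31 (adjusted p = 0.0318). Of 28 apoptosis regulators 2 were higher and 2 lower (7.14% each). Bbc3, the BH3-only killer PUMA, was at 13.43 and 13.45 untreated and 13.85 and 13.73 after KLA, and Trp53, the p53 gene, at 10.75 and 10.73 untreated and 11.10 and 11.07 after KLA. Trp53inp1 was at 13.51 and 13.39 untreated and 13.04 and 13.03 after KLA, and Ccng1 at 10.07 and 10.01 untreated and 9.76 and 9.72 after KLA. Groups were separated in all 4, upwards for Bbc3 and Trp53 and downwards for Trp53inp1 and Ccng1. Bbc3, Trp53inp1 and Ccng1 are known targets of p53. Bbc3 changed by 0.35 (adjusted p = 0.00133), Trp53 by 0.34 (adjusted p = 0.00987), Trp53inp1 by -0.41 (adjusted p = 0.00437) and Ccng1 by -0.30 (adjusted p = 0.0219). The other probes gave 0.12 for Trp53, 0.01 for Trp53inp1 and 0.07 for Ccng1. The call of Bbc3 held without each channel in turn. Those of Sesn2 and Ccng1 were lost without any 1 channel (adjusted p = 0.0523 to 0.188), and that of Trp53inp1 without untreated replicate 1 (0.0884). Those of Shmt2 and Psat1 were lost without untreated replicate 1, KLA replicate 1 or KLA replicate 2 (0.0597 to 0.395), and that of Trp53 without any but KLA replicate 2 (0.063 to 0.0983). Of 30 heat shock genes, Hspa9, a mitochondrial chaperone, was the 1 lower (-0.25, adjusted p = 0.0281) and 0 were higher. Its call held without KLA replicate 2 and was lost without any other channel (0.0952 to 0.311).

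Single members of other groups were called. Of 16 genes of MHC class II presentation, 16 had a positive change and 1 was called higher (6.25%, against 2.72% of all genes), with a median of 0.10. It was H2-Ob, a chain of the H2-O protein that restrains peptide loading in B cells, at 11.62 and 11.78 untreated and 12.20 and 12.15 after KLA (0.48, adjusted p = 0.00146). Of 42 interferon-stimulated genes 2 were higher (4.76%, against 2.72% of all genes) and 0 lower, with a median of 0.01. They were Tap1, the peptide transporter (0.36, adjusted p = 0.0273), and Mx1, which was not well above background in untreated cells and was at least 1.27-fold higher after KLA (adjusted p = 0.00406). Mif was the 1 of 35 glycolysis and hypoxia genes called (0.34, adjusted p = 0.0475) and Nle1 the 1 of 45 ribosome biogenesis genes (0.30, adjusted p = 0.0219). These shares, 2.86% and 2.22%, lay near the 2.72% of all genes called higher. The call of H2-Ob held without each channel in turn, that of Mx1 was lost without untreated replicate 2 (0.0589), that of Tap1 without any but untreated replicate 2 (0.108 to 0.32), and those of Mif and Nle1 without any 1 channel (0.0523 to 0.358). Of 42 cell cycle genes limma called 0, with 2 higher and 1 lower at an unadjusted p under 0.05 and a median of 0.02. Of 27 genes of mRNA decay it called 0, with 3 and 2 at an unadjusted p under 0.05 and a median of -0.03. Over all genes 3323 of 17345 were past that unadjusted p in either direction. With the replicate block 1 cell cycle gene was higher and 1 lower, and 2 and 1 of the mRNA decay genes. The block gave 1247 higher and 1159 lower of 17345 genes.

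Markers of other cells moved in 3 single genes. Ncr1 was the 1 of 8 NK cell markers called, and the log2 of the summed NK marker intensities was 9.34 and 9.33 in untreated cells and 9.78 and 9.84 after KLA. Without Ncr1 the sum of the other 7 was 9.20 and 9.18 untreated and 9.18 and 9.18 after KLA. Klrb1c, Klre1, Gzmb and Klra8 were well above background in no channel. A touching spot of Ncr1 changed by 1.15. Gp1ba, a platelet glycoprotein, was at 6.08 and 6.11 untreated and 6.59 and 6.81 after KLA (at least 1.51-fold, adjusted p = 0.000291), with a touching spot that changed by 0.85. Ela2, the neutrophil elastase gene, was well above background in no channel of either group, at 5.79 and 5.85 untreated and 6.25 and 6.21 after KLA (adjusted p = 0.00172). In both genes the KLA channels were above the untreated channels. The part of other cells in these calls was not tested.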

How the data were processed

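Samples were grouped by their labels, and 4 of 24 channels enter the comparison. The authors deposited scanner files with spot intensity, background and processed intensity (Agilent Feature Extraction 9.5.3.1, probe coordinates on mm8) and normalized intensity values on a linear scale, whose normalization is not given in the sources used here. Both files of an array were identical, so that the red columns gave the Cy5 sample and the green columns the Cy3 sample.

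Background was corrected with normexp (offset 50), loess balanced the dyes, and arrays were quantile normalized on their mean intensities, with limma 3.58.1 in R 4.3.3 (statmod 1.5.0, and the data.table package, 1.17.8). Of 41174 probes, 34850 carried 1 of 21597 symbols, and the probe with the highest mean represented a gene. A gene was kept if any of the 12 conditions had it well above background in both of its channels (17347, of which 2 had missing values in this comparison). A single fit over 24 channels (12 residual degrees of freedom) used Benjamini-Hochberg adjustment over all genes at 0.05. Levels are log2 intensities, and the offset compresses changes of dim genes. In the 4 channels 57.7% to 60.1% of probes were well above background, from 6.05 to 6.13 upwards, and no spot was saturated. The number of arrays limits the precision, and p-values measure the spread between channels of an array. On simulated data with 17239 genes, 98 of 100 genes changed by 1 on the log2 scale and 42 of 100 changed by 0.3 were found, along with 6 genes that had not been changed. The simulated noise was independent in each channel, without effects of array, spot or dye. The simulation therefore does not measure how many calls such effects give in the data.

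The dye pairs the channels, since the difference between Cy5 and Cy3 correlated over genes in each of 66 array pairs (0.27 to 0.63). Values with this replicate block are given for the counts of gene groups that it changes and for some single calls.

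The comparison, gene lists and tests were chosen with earlier results of these data known. Named genes were the 12 largest increases and decreases with separated channels and the brighter group detected, the called members of each list (or the highest and lowest), fixed receptor and response genes, and the largest differences from EPM. Only some are printed, and 1 called homing gene is not reported here. The spots of Itgav and Ereg and the examples of a second probe (Fgl2, Adora2a, Sesn2, Ticam1) were picked after their values were seen. Alternatives were an offset of 16, processed signal, median centring, quantile normalization over channels, the authors' table, other filters, the mean of probes, the replicate block, smaller fits, arrays as samples, a threshold of 0.01, a trended prior, single channels left out and the labels exchanged. Subtracting the local level and leaving out genes beside changed spots were alternatives added after seeing the data.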

Additional observations from a re-analysis of the deposited data

Results flagged for a closer look

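The change at 1 h, with untreated cells as the control in both, differed between B cells and EPM by the limma test of the difference for 62 of the 84 named genes. The change was lower in B cells in 40 of them and higher in 22.

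Among cytokine and chemokine genes the difference, B cells minus EPM, was -7.66 for Il1b, -6.54 for Tnf, -5.89 for Ccl4, -5.01 for Ccl3, -4.66 for Cxcl10, -3.28 for Il10, -3.08 for Il6 and -2.83 for Ccl9, and it was -6.77 for Irg1, the itaconate-producing enzyme. Among NF-kappaB genes and regulators of their transcripts it was -6.18 for Nfkbiz, -4.29 for Nfkbia, -4.16 for Tnfaip3, -2.68 for Zc3h12a, -2.26 for Icam1, -1.94 for Rel, -1.91 for Birc3 and -1.38 for Nfkb2. Among early response genes it was -3.56 for Egr1, -3.12 for Maff, -3.07 for Nr4a1, -2.64 for Egr2, -1.87 for Myc, -1.85 for Trib1, -1.79 for Junb and -1.28 for Fos. Ccrn4l (-3.20), Jmjd3 (-3.16), Trex1 (-2.22) and Itpkc (-1.27) came from the list drawn on the macrophages. Genes of receptors and surface proteins were Cd83 (-2.83), Cd14 (-2.26), Cd69 (-1.44), Cd274 (-0.86), Edg1 (-0.40) and Itgal (-0.36). The remaining negative differences were those of Kcnk4 (-1.54), Zfp97 (-1.38), Slc8a2 (-1.04), D4Ertd429e (-1.0) and Etv4 (-0.97), which fell in B cells at the probes used.

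Of the 22 positive differences, 11 were those of genes with a touching spot that changed by 0.85 or more on the B cell arrays. They were Bcmo1 (3.14), Ccdc7 (3.02), Asb10 (2.48), 9430028N04Rik (2.32), Ncr1 (2.26), Slc38a3 (2.18), Hyal4 (2.15), 7630403G23Rik (1.76), Olfr860 (1.67), Fgl2 (1.14) and Gp1ba (0.55). Genes without such a spot were Lrdd (1.22), Iqcd (0.83), H2-Ob (0.50), Adora2a (0.49), Trp53 (0.47), Nle1 (0.45), Sesn2 (0.39) and Ela2 (0.34). Txnip, an inhibitor of thioredoxin, fell by 2.54 in EPM and changed by 0.06 in B cells (adjusted p = 0.841), a difference of 2.60.

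The sign depended on the macrophage type in 2 genes. Atf3 fell by 0.40 in EPM, rose by 0.82 in BMDM and rose by 0.24 in B cells, so that the difference was 0.64 against EPM and -0.58 against BMDM (adjusted p = 5.65e-05). For Bbc3 the difference was 0.94 against EPM and -0.75 against BMDM (adjusted p = 3.16e-06).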

How the results depend on the processing

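All named B cell values that were called kept their direction with processed signal, an offset of 16, channels quantile normalized together, no filter or either stricter filter, the mean of probes, the replicate block, fits of 8 or 4 channels, array means, a threshold of 0.01, a trended prior, each channel left out, the local level subtracted and genes beside changed spots left out, where these gave a value. Of the calls of named genes, 44 were lost with array means, 19 with processed signal, 16 and 20 in the fits of 4 and 8 channels, and 16 to 23 with a channel left out. With median centring Il15 turned to -0.03, and the cause was not tested. Against 472 genes higher and 425 lower, the counts were 289 and 693 with median centring, 284 and 237 with detection in all 4 channels, 1247 and 1159 with the replicate block (5601 genes differing from EPM and 4804 from BMDM), 217 and 175 in a fit of the 8 B cell channels, 259 and 194 in a fit of the 4 channels, 8 and 0 with array means, and 214 and 194 at a threshold of 0.01. Leaving out 1 channel gave 169 to 401 genes higher and 164 to 256 lower. The authors' table gave 3989 and 3172, of which 316 calls were shared in direction and 166 opposite, and exchanged labels gave 4335 and 3883, of which 370 were shared and 183 opposite. The counts over all genes under the other alternatives were within 1.5 times of the values reported, whereas those of single gene groups, of a few genes each, moved more. Similar counts did not mean the same genes. Of the reported calls with a value, 426 of 893 were shared in direction with processed signal and 626 of 897 with the mean of probes. With an offset of 16 it was 716 of 894, and with channels quantile normalized together 837 of 897. With the block 4 cytokine genes were higher, and with an offset of 16 3 cytokine genes were. Counts higher and lower with the block were 5 and 2 for the stress response, 4 and 2 for ribosome biogenesis and 2 and 3 for heat shock. They were 3 and 0 for MHC class II, 3 and 3 for apoptosis regulators and 3 and 0 for interferon-stimulated genes. Glycolysis and hypoxia genes had 2 and 1, and homing receptors 0 and 5. Over all 17345 genes the block gave 1247 and 1159. Signal over background limits calls of genes near it, and 2902 genes were well above background in no channel of either group.

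Under the exchange of labels 55 of the 84 changes at 1 h turned in sign and 29 kept it. Past the threshold under neither labelling were Cd14 (-0.13) and Tnfrsf4 (-0.10), and the other 53 that turned were -0.04 for Asb10, -0.06 for 9430028N04Rik, -0.01 for Ncr1, -0.02 for 7630403G23Rik, -0.10 for Slc38a3, -0.07 for Hyal4, 0.09 for Slc8a2, -0.64 for Fgl2, -0.45 for Egr1, -0.43 for Fosb, -1.83 for Nr4a1, -1.48 for Maff, 0.00 for Trib1, -1.64 for Atf3, -1.63 for Jmjd3, -0.08 for Itpkc, -0.76 for Fos, 0.58 for Jun, -0.94 for Junb, -1.77 for Myc, -0.88 for Nfkb2, -0.23 for Icam1, -0.39 for Nfkbia, -0.89 for Tnfaip3, -0.86 for Rel, -0.06 for Il15, -1.06 for Tnf, 1.67 for Il6, -0.30 for Il10, -0.57 for Cxcl10, -0.79 for Ccl3, -1.23 for Ccl4, -1.06 for Il1b, -0.62 for Nfkbiz, -0.71 for Zc3h12a, -1.47 for Txnip, 0.33 for Tlr4, 0.26 for Ly86, 0.29 for Cd274, -2.07 for Cd86, -1.43 for Cd83, 0.86 for Edg1, 0.07 for Itgal, 0.64 for Rgs18, -1.12 for Sesn2, -0.76 for Shmt2, -0.38 for Bbc3, -0.04 for Trp53, 0.12 for Trp53inp1, 0.07 for Ccng1, -0.07 for Mif, -1.23 for Nle1 and 0.68 for Ms4a1.

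In the authors' table, by its own labels, 45 of the 74 named genes with a value turned and 29 kept their sign. Past the threshold in neither were Cd14 (-0.02) and Tnfrsf4 (-0.11), and the other 43 were -0.09 for Ncr1, -0.01 for 7630403G23Rik, -0.09 for Slc38a3, 0.00 for Hyal4, -0.04 for Olfr860, 0.14 for Slc8a2, -0.61 for Fgl2, -0.38 for Egr1, -0.37 for Fosb, -1.93 for Nr4a1, -1.44 for Maff, -1.59 for Atf3, -1.52 for Jmjd3, -0.06 for Itpkc, -1.09 for Junb, -0.82 for Nfkb2, -0.53 for Nfkbia, -0.80 for Tnfaip3, -0.95 for Rel, -0.05 for Il15, -0.62 for Cxcl10, -0.75 for Ccl3, -1.14 for Ccl4, -0.55 for Nfkbiz, -0.70 for Zc3h12a, -1.34 for Txnip, 0.28 for Ly86, 0.36 for Cd274, -2.10 for Cd86, -1.54 for Cd83, 0.79 for Edg1, 0.10 for Itgal, 0.77 for Rgs18, -1.03 for Sesn2, -0.65 for Shmt2, -0.36 for Bbc3, -0.02 for Trp53, 0.10 for Trp53inp1, 0.11 for Ccng1, -0.06 for Mif, -1.16 for Nle1, -0.01 for Gp1ba and 0.69 for Ms4a1.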
